A study of Homo sapiens with 18 samples.

Results

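The BCL2 family decides whether the outer mitochondrial membrane is opened during apoptosis, and transcripts of 10 of its genes were followed in 2 human ovarian cancer cell lines exposed to daphnetin, a dihydroxycoumarin made by plants. The genes were BCL2, BCL2L1, MCL1, BAX, BAK1, BCL2L11, BBC3, PMAIP1, BID and BIK, taken by symbol from a table of 56303 genes, and all 10 were found in it. They were taken as named members of the family, with earlier results of these data known. The libraries came from SKOV3 cells and A2780 cells, both established lines. Each line had 3 libraries with daphnetin at 20 mg/L, 3 with daphnetin at 40 mg/L and 3 with DMSO, the solvent, alone. No deletion, transgene or further agent is labelled in any group, and every sample carries the tag WT. The labels also name ovarian tissue, but the samples are cultured lines. The stated question was which transcripts and pathways change as daphnetin kills ovarian cancer cells and limits their movement, and the series title names ferroptosis, an iron-dependent death distinct from apoptosis. The growth protocol names a pair of media with different serum contents, listed in the order of the lines, so a difference between lines and a difference between media cannot be told apart. The time of exposure is not given in the sources used here, and nothing says whether replicates were separate cultures, so each p-value reflects only the spread among these libraries, which may be technical.

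Members of the family act in 3 roles. The pro-survival proteins BCL2, BCL-xL (from BCL2L1) and MCL1 hold the membrane intact by binding the death-promoting members. The effectors BAX and BAK (from BAK1) form the pores through which cytochrome c escapes to start caspase activation. The BH3-only proteins PUMA (from BBC3), NOXA (from PMAIP1), BIM (from BCL2L11), BID and BIK sense damage or stress and either occupy the pro-survival proteins or activate the effectors. NOXA binds MCL1 and favours its destruction, whereas BIM and PUMA bind every pro-survival member named here. PMAIP1 is induced by ATF4 when protein synthesis or the endoplasmic reticulum is under stress.

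The starts of 3 of these genes are shown because the results below turn on them: PMAIP1 had the largest fold change of the 10 genes in SKOV3, and BBC3 and BAX rose together in A2780. Each window runs 5′ to 3′ along the gene, from 250 bases before the annotated start to 50 bases after it, in RefSeq coordinates of GRCh38.p14. Capitals mark matches to the motifs named after the sequences.
PMAIP1, chr18:59899746-59900045, plus strand: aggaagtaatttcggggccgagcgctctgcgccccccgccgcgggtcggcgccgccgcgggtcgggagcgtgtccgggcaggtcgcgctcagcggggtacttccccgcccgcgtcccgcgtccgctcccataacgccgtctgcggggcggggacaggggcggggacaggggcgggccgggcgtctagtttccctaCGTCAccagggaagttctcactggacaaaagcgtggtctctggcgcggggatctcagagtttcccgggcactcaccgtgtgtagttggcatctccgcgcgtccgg
BBC3, chr19:47232618-47232917, minus strand: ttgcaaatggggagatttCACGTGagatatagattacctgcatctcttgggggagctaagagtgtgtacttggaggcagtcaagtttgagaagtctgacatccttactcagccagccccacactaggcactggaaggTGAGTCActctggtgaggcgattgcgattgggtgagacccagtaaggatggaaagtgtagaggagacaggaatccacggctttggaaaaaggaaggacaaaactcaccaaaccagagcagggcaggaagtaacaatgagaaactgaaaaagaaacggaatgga
BAX, chr19:48954625-48954924, plus strand: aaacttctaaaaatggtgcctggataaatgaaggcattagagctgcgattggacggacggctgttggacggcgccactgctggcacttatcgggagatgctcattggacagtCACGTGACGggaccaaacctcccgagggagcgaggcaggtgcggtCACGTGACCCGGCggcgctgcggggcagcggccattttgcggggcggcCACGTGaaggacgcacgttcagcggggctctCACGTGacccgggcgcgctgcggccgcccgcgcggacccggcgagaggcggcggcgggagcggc

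The motifs reported here, each searched on both strands, were an E-box (CACGTG), a cyclic AMP response element core (TGACG), an AP-1 site (TGANTCA), a C/EBP-ATF element (TGATGNAA) and an antioxidant response element core (TGACNNNGC). The PMAIP1 window held 1 match to these, to the cyclic AMP response element core, at base 196 on the opposite strand. The BBC3 window held an E-box at base 19 and an AP-1 site at base 138. The BAX window held 4 E-boxes, the first at base 113, and its matches to the cyclic AMP response element core and the antioxidant core each shared bases with an E-box. Among 35116 promoters of the same length, the E-box occurred in 7.26%, the cyclic AMP response element core in 24.6%, the AP-1 site in 7.71%, the C/EBP-ATF element in 3.62% and the antioxidant core in 13.3%. Starts of 8 of the 10 genes were matched, in 13 windows, and MCL1 and BIK were not.

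Libraries held 35105152 to 44132931 counts in SKOV3 and 30016475 to 37220879 in A2780. From 74.3% to 77.0% of the small counts (1 to 12) in a library were even, so both mates of a read pair appear to have been counted, and totals exceed the number of fragments. Levels are given as CPM, counts scaled to the library total after TMM over all 18 libraries, and as CPM per kilobase of exon (RPKM) where genes are compared with each other. Mitochondrial genes took 4.36% to 5.23% of counts in SKOV3 and 10.6% to 16.5% in A2780, where the lowest shares were in 20 mg/L replicate 2 and 40 mg/L replicate 1; results are also given without this pair where that changes a call. ERBB2, amplified in SKOV3, averaged 2757 CPM in SKOV3 and 64.6 CPM in A2780 with DMSO. The epithelial and ovarian markers PAX8, KRT8, KRT18, KRT19, MUC16 and WT1 each averaged at most 1.31 CPM in A2780 with DMSO. That line thus carried little of these transcripts. EPCAM and VIM were also listed and are not reported here, and 5 of the 9 line and lineage markers passed the filter on low counts in A2780. In SKOV3, PAX8 averaged 184 CPM and KRT8 1115 CPM with DMSO, whereas WT1 averaged 0.224 CPM. Summed immune markers stayed between 0.620 and 1.57 CPM in all 18 libraries. Summed fibroblast and endothelial markers, led by DCN and PDGFRA in A2780, were lower at 40 mg/L than with DMSO in both lines. SKOV3 had 19.5 to 22.1 CPM at 20 mg/L and 7.61 to 9.84 CPM at 40 mg/L, against 20.4 to 21.4 CPM with DMSO. A2780 had 198 to 227 CPM at 20 mg/L and 180 to 202 CPM at 40 mg/L, against 234 to 267 CPM with DMSO. The 20 mg/L libraries overlapped those with DMSO in SKOV3 and those at 40 mg/L in A2780. VWF and CDH5 were near 0 in both lines, and the part of these markers in the results was not tested. In bulk libraries, fewer cells of a type and less RNA per cell cannot be told apart.

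Before any exposure, the lines carried different sets of family transcripts. Per length, MCL1 was the highest member in both, at 38.4 ± 0.501 RPKM in SKOV3 and 14.8 ± 1.66 RPKM in A2780 (SD, n = 3 each). In SKOV3 with DMSO the order continued with BCL2L1 (27.5 RPKM), PMAIP1 (27.1), BAX (8.86), BAK1 (3.36), BID (1.74), BCL2L11 (1.03), BBC3 (0.984), BIK (0.649) and BCL2 (0.328). The libraries of BCL2L1 and PMAIP1 overlapped there, as did those of BCL2L11 and BBC3 and those of BBC3 and BIK. In A2780 with DMSO the order after MCL1 was BAX (11.4 RPKM), BBC3 (4.34), BCL2L1 (3.21), BID (2.36), BAK1 (1.32), BIK (0.336), BCL2L11 (0.325), BCL2 (0.0535) and PMAIP1 (0.0264). Neighbours that overlapped in A2780 were BBC3 with BCL2L1, BIK with BCL2L11, and BCL2 with PMAIP1. PMAIP1, high in SKOV3, was thus the lowest of the 10 in A2780, while BBC3 stood above BCL2L1 in A2780 and far below it in SKOV3.

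**Figure D1:**
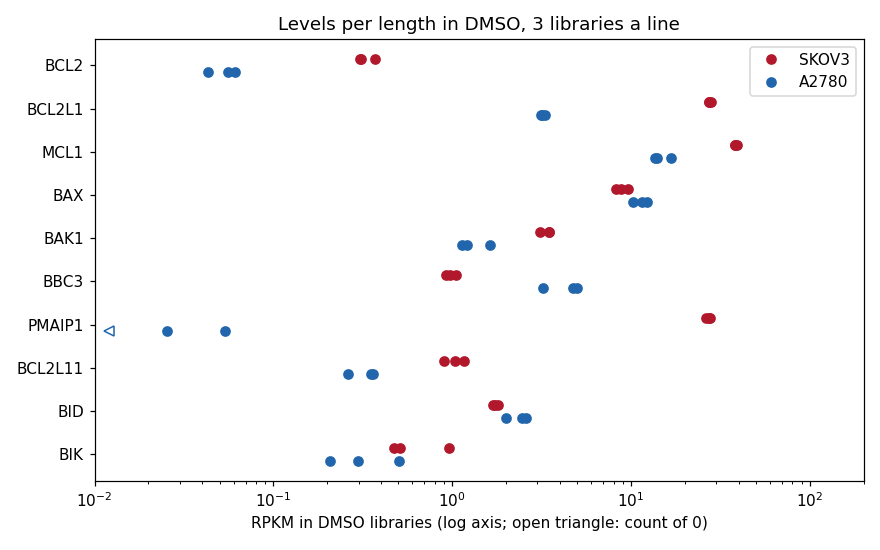
Level of each family gene in the DMSO libraries, in RPKM on a log axis, with SKOV3 above A2780 in each row and 1 point per library. PMAIP1 lies near 27.1 RPKM in SKOV3 and at or under 0.0537 RPKM in A2780, with the open triangle marking a count of 0.

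The direct comparison of the lines called 9 of the 10 genes at an adjusted p under 0.05 (edgeR, quasi-likelihood F test, Benjamini-Hochberg over 23742 genes), beside 78.3% of all genes tested, 41.2% higher and 37.2% lower in SKOV3. Higher in SKOV3 were BCL2L1 by 8.56-fold, BCL2 by 6.14-fold, BCL2L11 by 3.18-fold, MCL1 by 2.59-fold and BAK1 by 2.53-fold. Lower in SKOV3 were BBC3 (log2 difference −2.14, SE 0.14), BID (−0.43, SE 0.11) and BAX (−0.36, SE 0.08). For each of these the libraries of the lines did not overlap. The other call was PMAIP1, which passed the filter on low counts only through its SKOV3 libraries, so its call is not independent of that filter. BIK differed by log2 0.94 and was not called (edgeR adjusted p = 0.0646).

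PMAIP1 (chromosome 18, 59899948 to 59904306, plus strand, GRCh38) gave the widest gap. Its counts in DMSO libraries were 2603, 2079 and 2540 in SKOV3 and 4, 2 and 0 in A2780. Taken as read pairs, 3611 stood against 3, a ratio of 1001 after scaling with an exact Poisson-based interval of 342 to 4855 at 95%, which covers counting error only. In A2780 the counts were 4, 0 and 2 at 20 mg/L and 2, 4 and 4 at 40 mg/L, so no library of that line exceeded 4 counts and its response there was not measurable. The gene did not pass the filter on low counts in A2780, which leaves 9 members tested in that line. Of the genes within about 1 Mb, CCBE1 averaged 47.1 CPM in SKOV3 and 0.0200 CPM in A2780 with DMSO, ZNF532 32.9 and 0.161 CPM, and RP11-2N1.2 16.0 and 0.0389 CPM. LMAN1 (219 CPM in SKOV3 and 285 CPM in A2780) and SEC11C (32.3 and 36.3 CPM) lie in the same stretch and were present in both lines; these neighbours were named after their values were seen.

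Between 1 and 5 members were called in each comparison within a line. In SKOV3, 2 of 10 rose at 20 mg/L (PMAIP1 and BID) beside 10.1% of all 21936 genes called, 5.16% higher and 4.95% lower. SKOV3 at 40 mg/L had 4 of 10 called, PMAIP1 higher and BCL2, BCL2L1 and MCL1 lower, beside 52.1% of all genes, 26.4% higher and 25.6% lower. Between 40 and 20 mg/L in SKOV3, 5 of 10 were called, PMAIP1 and BCL2L11 higher and the 3 pro-survival genes lower, beside 47.4% of all genes, 23.2% higher and 24.2% lower. In A2780, 3 of 9 were called at 20 mg/L, BAX and BBC3 higher and BID lower, beside 36.9% of all 20593 genes, 18.1% higher and 18.9% lower. A2780 at 40 mg/L had BAX, BBC3 and MCL1 called higher, 3 of 9, beside 36.9% of all genes, 17.7% higher and 19.2% lower. Between 40 and 20 mg/L in A2780, BBC3 alone was called, 1 of 9, beside 14.6% of all genes, 6.71% higher and 7.85% lower. The shares of members called were thus at or under the background in 4 of these 6 comparisons; the exceptions were SKOV3 at 20 mg/L (20% of members) and SKOV3 between doses (50%). The median log2 change of the tested members at 40 mg/L was −0.01 in SKOV3 and 0.30 in A2780, beside 0.01 and −0.01 over all genes.

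**Figure D2:**
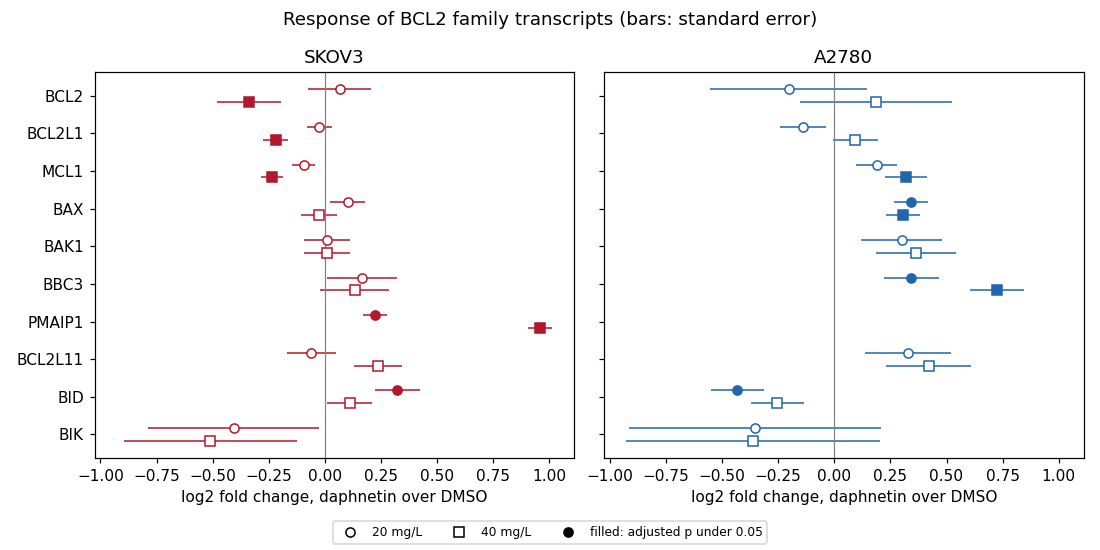
log2 fold change of each family gene, daphnetin over DMSO, with SKOV3 on the left and A2780 on the right. Circles are 20 mg/L and squares 40 mg/L, bars are 1 standard error, and filled symbols passed an adjusted p under 0.05. PMAIP1 in SKOV3 at 40 mg/L (0.96) lies farthest to the right, and it has no symbol in A2780, where it was not tested.

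Among the pro-survival genes, MCL1 and BCL2L1 fell in SKOV3 at the higher dose while MCL1 rose in A2780. BCL2 was also called lower in SKOV3 at that dose, a call lost under 9 of 15 alternatives. MCL1 (chromosome 1, 150574551 to 150579738, minus strand) encodes a short-lived protein whose loss is enough to kill many cancer cells. In SKOV3 it had 152, 162 and 159 CPM at 20 mg/L and 146, 142 and 139 CPM at 40 mg/L, against 170, 166 and 168 CPM with DMSO. Every exposed library lay below every DMSO library, and the 40 mg/L libraries lay below those at 20 mg/L. At 40 mg/L the fall was 0.23 on the log2 scale (fold 0.850, SE 0.05, edgeR adjusted p = 0.000156), and at 20 mg/L the value was −0.09, not called (edgeR adjusted p = 0.265). The step between doses (−0.14, SE 0.05, edgeR adjusted p = 0.0196) lost its call without 20 mg/L replicate 2 (adjusted p = 0.0815) or 3 (0.0585), with no filter on low counts (0.0641), and with all libraries in 1 fit (0.104).

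In A2780, MCL1 had 74.8, 86.1 and 62.3 CPM at 20 mg/L and 83.6, 80.6 and 81.7 CPM at 40 mg/L, against 73.2, 59.9 and 61.5 CPM with DMSO. The 3 libraries at 40 mg/L lay above all DMSO libraries and close together, whereas those at 20 mg/L overlapped the controls. MCL1 rose by log2 0.32 at 40 mg/L (fold 1.25, SE 0.09, edgeR adjusted p = 0.00955), and at 20 mg/L the value was 0.19 (edgeR adjusted p = 0.120).

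BCL2L1 (chromosome 20, 31664452 to 31723989, minus strand), the source of BCL-xL, had 94.3, 82.9 and 91.8 CPM at 20 mg/L and 75.0, 76.5 and 82.4 CPM at 40 mg/L in SKOV3, against 92.5, 90.1 and 90.6 CPM with DMSO. The 40 mg/L libraries lay below all 6 others. It fell by 0.22 on the log2 scale (fold 0.859, SE 0.06, edgeR adjusted p = 0.00116) against DMSO and fell by 0.19 (SE 0.06, edgeR adjusted p = 0.00407) against 20 mg/L. In A2780, BCL2L1 had 10.2, 10.0 and 8.86 CPM at 20 mg/L and 11, 12 and 11.5 CPM at 40 mg/L, against 10.5, 10.5 and 10.9 CPM with DMSO. Neither dose was called there (−0.14 and 0.09 on the log2 scale, edgeR adjusted p = 0.300 and 0.508). Of the exonic bases of BCL2L1, 43.0% lie opposite the antisense gene ABALON, and the strand setting of the counting is not given in the sources used here, so reads of both genes cannot be told apart. ABALON received 80.1% to 84.8% as many counts as BCL2L1 in SKOV3 and 72.3% to 82.2% in A2780.

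BCL2 (chromosome 18, 63123346 to 63320128, minus strand), the founding member, was scarce in both lines. In SKOV3 it had 4.38, 3.66 and 4.14 CPM at 20 mg/L and 3.15, 3.21 and 2.76 CPM at 40 mg/L, against 3.58, 3.64 and 4.37 CPM with DMSO, which is 102 to 184 counts per library. The libraries at 40 mg/L were the lowest 3 of the 9. The change at 40 mg/L against DMSO was −0.34 (SE 0.14, edgeR adjusted p = 0.0472) and lost its call under 9 of 15 alternatives, among them DESeq2 (adjusted p = 0.0604), the replicate block (0.0521) and the omission of DMSO replicate 3 (log2 −0.24, adjusted p = 0.221) or of any 1 library at 40 mg/L. Against 20 mg/L the change was −0.40 (SE 0.14, edgeR adjusted p = 0.0190), lost without 20 mg/L replicate 1 (adjusted p = 0.0879) or 40 mg/L replicate 3 (0.0727). In A2780, BCL2 ranged from 0.510 to 0.820 CPM over all 9 libraries, 18 to 26 counts each, with no call at either dose.

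**Figure D3:**
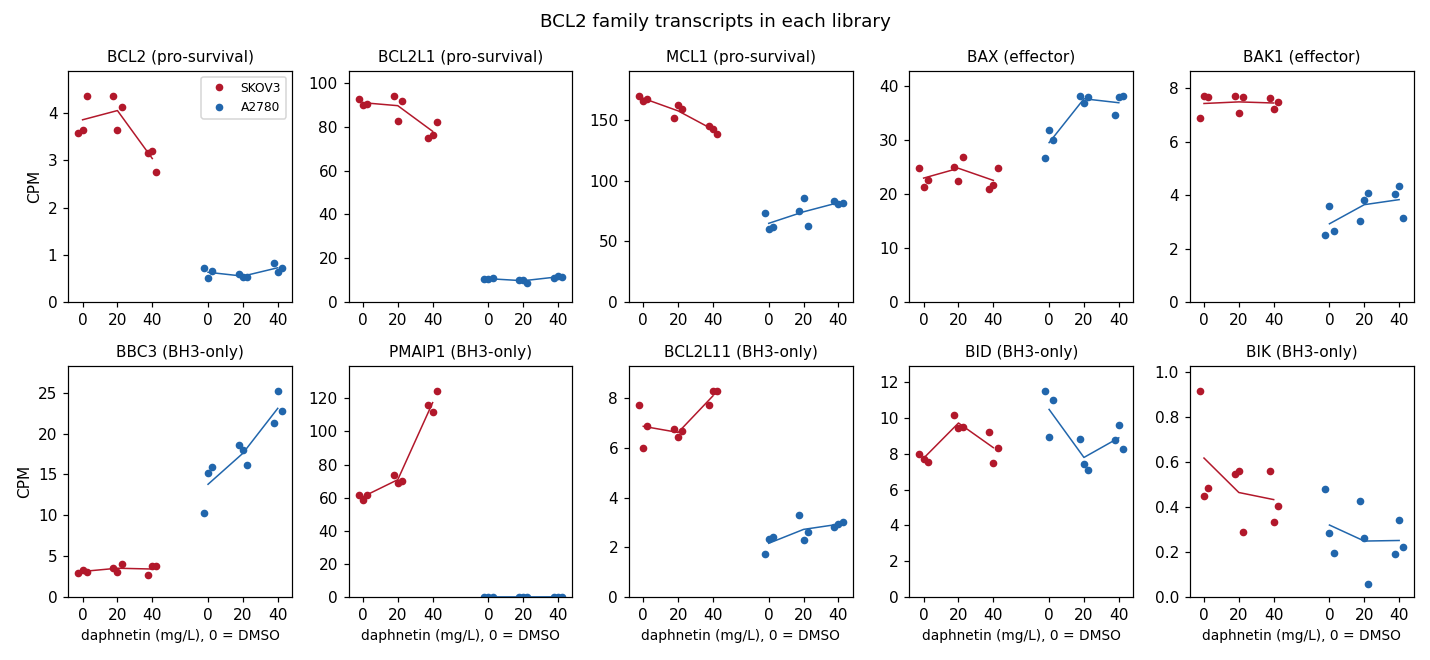
Level of each family gene in every library, in CPM, with SKOV3 on the left and A2780 on the right of each panel and doses of 0 (DMSO), 20 and 40 mg/L from left to right. Points are libraries and lines join group means; the vertical axis of each panel starts at 0 and has its own range. PMAIP1 in SKOV3 and BBC3 in A2780 climb at each step, while the pro-survival genes of SKOV3 are lowest at 40 mg/L.

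Of the effectors, BAX rose in A2780 and neither gene was called in SKOV3. BAX (chromosome 19, 48954815 to 48961798, plus strand) had 38.1, 36.8 and 37.9 CPM at 20 mg/L and 34.6, 37.8 and 38.2 CPM at 40 mg/L in A2780, against 26.6, 31.8 and 30.0 CPM with DMSO. All 6 exposed libraries lay above the 3 controls, and the doses overlapped each other. The rise was log2 0.34 at 20 mg/L (fold 1.27, SE 0.08, edgeR adjusted p = 0.000599) and 0.30 at 40 mg/L (fold 1.23, SE 0.08, edgeR adjusted p = 0.00194). These calls held under every alternative tried for them. In SKOV3, BAX had 24.9, 22.4 and 26.9 CPM at 20 mg/L and 20.9, 21.7 and 24.8 CPM at 40 mg/L, against 24.8, 21.3 and 22.7 CPM with DMSO, and all 3 groups overlapped.

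BAK1 (chromosome 6, 33572547 to 33580293, minus strand) had 3.03, 3.82 and 4.08 CPM at 20 mg/L and 4.04, 4.33 and 3.14 CPM at 40 mg/L in A2780, against 2.52, 3.6 and 2.67 CPM with DMSO. The groups overlapped, and the log2 changes of 0.30 and 0.36 were not called (edgeR adjusted p = 0.205 and 0.116). In SKOV3 the 9 libraries ran from 6.90 to 7.73 CPM, and the 95% interval of the change at 40 mg/L was −0.20 to 0.22 on the log2 scale.

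PMAIP1 had the largest response of any member. This BH3-only gene had 73.9, 68.8 and 69.8 CPM at 20 mg/L and 116, 112 and 125 CPM at 40 mg/L in SKOV3, against 61.3, 58.6 and 61.7 CPM with DMSO. The 3 groups were fully separated in order of dose. It rose by log2 0.96 at 40 mg/L (fold 1.94, SE 0.05, edgeR adjusted p = 1.55e-16), by 0.22 at 20 mg/L (fold 1.17, SE 0.05, edgeR adjusted p = 0.00540) and by 0.74 between the doses (SE 0.05, edgeR adjusted p = 2.09e-13). The call at 20 mg/L was lost without 20 mg/L replicate 1 (adjusted p = 0.0521), and the others held under every alternative, with log2 values of 0.92 to 1.00 at 40 mg/L. Its transcript level relative to MCL1, the protein it binds, was 0.880 ± 0.0640 at 20 mg/L and 1.61 ± 0.123 at 40 mg/L, against 0.705 ± 0.0143 with DMSO (ratio of RPKM, SD, n = 3 each).

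BBC3, the gene of PUMA (chromosome 19, 47220822 to 47232766, minus strand), rose with dose in A2780. It had 18.6, 18 and 16.1 CPM at 20 mg/L and 21.3, 25.3 and 22.8 CPM at 40 mg/L, against 10.3, 15.2 and 16.0 CPM with DMSO. No library at 40 mg/L overlapped the others, and at 20 mg/L the lowest library stood just above the highest control, while DMSO replicate 1 was well below its group. The rise at 40 mg/L was log2 0.73 (fold 1.65, SE 0.12, edgeR adjusted p = 3.82e-05) and held under every alternative, at 0.56 without DMSO replicate 1. The rise at 20 mg/L, log2 0.34 (SE 0.12, edgeR adjusted p = 0.0282), was lost without DMSO replicate 1 (log2 0.18, adjusted p = 0.182), without 20 mg/L replicate 1 (0.0932) or 2 (0.0666), and without both libraries of lowest mitochondrial share (0.0648). Between the doses it was 0.38 (SE 0.12, edgeR adjusted p = 0.0294), lost without 20 mg/L replicate 1 (adjusted p = 0.0579) or 3 (0.141) or 40 mg/L replicate 2 (0.140) or 3 (0.0737). In SKOV3, BBC3 ran from 2.75 to 4.0 CPM in the 9 libraries, its groups overlapped, and the 95% interval of its change at 40 mg/L was −0.18 to 0.45 on the log2 scale.

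BCL2L11, the gene of BIM (chromosome 2, 111119378 to 111168447, plus strand), had 6.76, 6.46 and 6.68 CPM at 20 mg/L and 7.72, 8.28 and 8.32 CPM at 40 mg/L in SKOV3, against 7.73, 6.01 and 6.89 CPM with DMSO. The 40 mg/L libraries lay above those at 20 mg/L, and 1 of them fell within the DMSO range. It was higher at 40 than at 20 mg/L by log2 0.30 (SE 0.11, edgeR adjusted p = 0.0220), a call lost with all libraries in 1 fit (adjusted p = 0.0659) and without 20 mg/L replicate 2 (0.0688), 40 mg/L replicate 2 (0.0602) or 3 (0.0523). Against DMSO the value at 40 mg/L was 0.24, not called (edgeR adjusted p = 0.0618). In A2780 it had 3.30, 2.28 and 2.60 CPM at 20 mg/L and 2.84, 2.93 and 3.02 CPM at 40 mg/L, against 1.74, 2.35 and 2.40 CPM with DMSO, with no overlap at 40 mg/L. The values of 0.33 and 0.42 on the log2 scale were not called (edgeR adjusted p = 0.189 and 0.0842).

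BID (chromosome 22, 17734138 to 17774770, minus strand), which links death receptors to mitochondria once caspase-8 has cut it, moved in opposite directions at 20 mg/L. In SKOV3 it had 10.2, 9.45 and 9.53 CPM at 20 mg/L and 9.19, 7.49 and 8.34 CPM at 40 mg/L, against 8.01, 7.73 and 7.53 CPM with DMSO. In A2780 it had 8.82, 7.45 and 7.12 CPM at 20 mg/L and 8.80, 9.59 and 8.29 CPM at 40 mg/L, against 11.5, 8.92 and 11 CPM with DMSO. At 20 mg/L the groups did not overlap in either line, and at 40 mg/L they overlapped in both. The rise in SKOV3 at 20 mg/L was log2 0.32 (SE 0.10, edgeR adjusted p = 0.0310), lost with all libraries in 1 fit (adjusted p = 0.0731) and on omission of any of the 6 libraries compared (0.0519 to 0.131). In A2780 BID fell by 0.43 on the log2 scale at 20 mg/L (SE 0.12, edgeR adjusted p = 0.00484), a call that held under every alternative. At 40 mg/L the values were 0.11 in SKOV3 and −0.25 in A2780, neither called (edgeR adjusted p = 0.369 and 0.0947).

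BIK (chromosome 22, 43110748 to 43129712, plus strand), a BH3-only gene whose protein sits mainly at the endoplasmic reticulum, was close to the detection limit. It ran from 0.288 to 0.919 CPM in SKOV3 and from 0.0591 to 0.481 CPM in A2780, with 2 to 39 counts per library. It was called nowhere, and the 95% interval of its change at 40 mg/L was −1.29 to 0.27 in SKOV3 and −1.52 to 0.79 in A2780 on the log2 scale, so a sizeable change was not detectable at this depth.

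Summed by role and per length, the balance of transcripts shifted mainly in SKOV3. There the 5 BH3-only genes summed to 36.5 ± 1.37 RPKM at 20 mg/L and 57.1 ± 3.07 RPKM at 40 mg/L, against 31.5 ± 0.979 RPKM with DMSO. The 3 pro-survival genes summed to 63.5 ± 1.02 and 56.3 ± 0.459 RPKM at those doses, against 66.2 ± 0.881 RPKM with DMSO (SD, n = 3 each). The ratio of the BH3-only to the pro-survival sum was 0.575 ± 0.0213 at 20 mg/L and 1.01 ± 0.0461 at 40 mg/L, against 0.475 ± 0.00958 with DMSO, with no overlap between groups. PMAIP1 made up 91.9% of the BH3-only sum at 40 mg/L and 86.0% with DMSO, so this ratio follows that gene. In A2780 all 3 sums were higher at 40 mg/L: the pro-survival sum was 22.3 ± 0.212 RPKM against 18.1 ± 1.63 with DMSO, the effector sum 16.0 ± 0.718 against 12.7 ± 1.24, and the BH3-only sum 10.0 ± 0.848 against 7.39 ± 0.711. The ratio of BH3-only to pro-survival in A2780 was 0.449 ± 0.0418 at 40 mg/L and 0.412 ± 0.0693 with DMSO, and the groups overlapped. MCL1 held 84.2% of the pro-survival sum at 40 mg/L and 81.9% with DMSO in A2780, and 57.8% and 58.0% in SKOV3. These sums are levels of transcripts, carry no test, and weight each gene by its abundance.

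**Figure D4:**
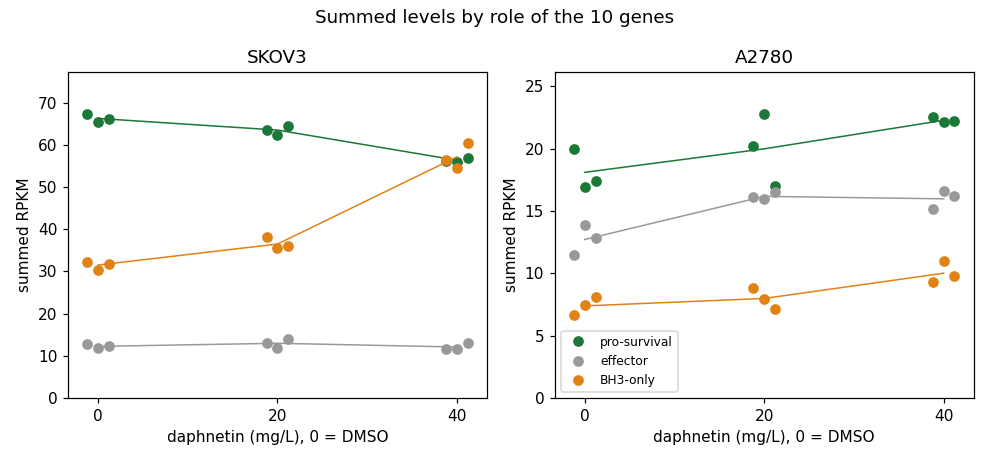
Sum of RPKM over the pro-survival, effector and BH3-only genes in each library by daphnetin dose, with SKOV3 on the left and A2780 on the right; points are libraries, lines join group means, and the vertical axes differ between panels. In SKOV3 the BH3-only sum reaches 57.1 RPKM at 40 mg/L, level with the pro-survival sum of 56.3 RPKM, while in A2780 the order of the 3 sums is the same at every dose.

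The difference between the lines' responses was tested directly in 1 model of the 18 libraries, with the A2780 response subtracted from that of SKOV3. At 40 mg/L, 4 of the 10 members differed, beside 29.9% of 23742 genes (14.3% higher and 15.7% lower in SKOV3), and in each the response was lower in SKOV3: MCL1 by −0.58 (SE 0.10, edgeR adjusted p = 3.57e-05), BBC3 by −0.62 (SE 0.20, edgeR adjusted p = 0.0144), BAX by −0.35 (SE 0.11, edgeR adjusted p = 0.0147) and BCL2L1 by −0.34 (SE 0.10, edgeR adjusted p = 0.00837) on the log2 scale. Those of MCL1 and BCL2L1 held under every alternative. That of BBC3 was lost without A2780 DMSO replicate 1 (−0.44, adjusted p = 0.0586) or SKOV3 40 mg/L replicate 1 (0.0600), and that of BAX without DMSO replicate 1 of A2780 (0.0624) or of SKOV3 (0.0650). At 20 mg/L, 2 of 10 differed, beside 21.6% of all genes (11% higher and 10.6% lower in SKOV3): BID by 0.75 (SE 0.16, edgeR adjusted p = 0.000430), held under every alternative, and MCL1 by −0.29 (SE 0.10, edgeR adjusted p = 0.0433), lost under 11 of 21 alternatives, with −0.17 both without A2780 20 mg/L replicate 2 (adjusted p = 0.234) and without the pair of lowest mitochondrial share (0.223). The comparison has no meaning for PMAIP1, whose A2780 counts were at most 4.

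Other genes of the BCL2 family were read from a list of 13, of which 10 passed the filter in SKOV3 and 9 in A2780. In SKOV3, 2 rose at 20 mg/L (20% called, beside 10.1% of all genes), and 2 rose and 4 fell at 40 mg/L (60%, beside 52.1%). The number called at 20 mg/L ranged from 1 to 3 over 15 alternatives. In A2780, 1 rose and 3 fell at each dose (44.4% called, beside 36.9% of all genes). The largest rise was that of HRK, a BH3-only gene studied mostly in neurons. It had 2.68, 2.25 and 2.06 CPM at 40 mg/L in SKOV3, against 0.283, 0.282 and 0.291 CPM with DMSO. HRK rose 8.14-fold (log2 3.02, SE 0.31, edgeR adjusted p = 6.18e-10). Its DMSO libraries held only 12, 10 and 12 counts, close to the detection limit, so the size of the fold is uncertain. The 20 mg/L libraries of SKOV3 were scattered, with 18, 38 and 10 counts of HRK. BMF, a BH3-only gene tied to detachment and the cytoskeleton, rose in both lines at 20 mg/L, to 12.6, 16.1 and 12.2 CPM against 9.28, 8.52 and 8.16 CPM in SKOV3 and to 4.23, 3.85 and 3.84 CPM against 1.35, 2.52 and 1.97 CPM in A2780 (edgeR adjusted p = 4.43e-05 and 7.36e-05). At 40 mg/L it fell in SKOV3 (log2 −0.44) and remained higher in A2780 (log2 0.70).

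BNIP3, a mitophagy receptor grouped with BH3-only genes, rose in SKOV3 (log2 0.20 and 0.28 at 20 and 40 mg/L) and fell in A2780 (−0.34 and −0.48); the SKOV3 call at 20 mg/L was lost under 4 of 15 alternatives. Its relative BNIP3L fell in A2780 at 40 mg/L (−0.36), with −0.05 at 20 mg/L. BOK, an effector relative of BAX, had 4.73, 5.90 and 5.55 CPM at 20 mg/L in A2780, against 9.52, 9.0 and 9.61 CPM with DMSO, and fell at both doses (−0.81 and −0.51). BCL2L13, a mitochondrial outer membrane protein, fell in A2780 at 20 mg/L (−0.30). In SKOV3 at 40 mg/L the BH3-only gene BAD (−0.39), BCL2L12 (−0.22) and BCL2L15 (−1.50, at 0.192 CPM against 0.556 CPM with DMSO) fell, with 23.7% of the exonic bases of BAD opposite GPR137 and 33.1% of those of BCL2L12 opposite IRF3. The pro-survival BCL2L2 averaged 60.2 and 75.0 CPM at 40 mg/L in SKOV3 and A2780, against 58.1 and 79.3 CPM with DMSO, and was not called; 19.4% of its exonic bases are shared with the readthrough gene BCL2L2-PABPN1. BCL2A1, BCL2L10 and BCL2L14 averaged at most 0.145 CPM in every group.

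Downstream of the pore, 18 genes of caspase activation were listed. In SKOV3, 1 rose and 2 fell at 20 mg/L (16.7% called, beside 10.1% of all genes), and 8 rose and 4 fell at 40 mg/L (66.7%, beside 52.1%). The number called at 20 mg/L ranged from 1 to 4 over 15 alternatives, and from 1 to 2 on leaving out each library. In A2780, 5 rose and 4 fell at 20 mg/L (50%) and 6 rose and 4 fell at 40 mg/L (55.6%), beside 36.9% of all genes at each dose. BIRC5, the gene of survivin and of the mitotic passenger complex, fell in both lines at both doses, to 24.4, 21.1 and 30.0 CPM at 40 mg/L in SKOV3 against 105, 106 and 111 CPM with DMSO, and to 27.8, 30.5 and 30.3 CPM in A2780 against 62.0, 60.3 and 62.8 CPM. APAF1, the scaffold of the apoptosome, rose in A2780 (log2 0.53 and 0.74 at 20 and 40 mg/L) and was not called in SKOV3 (0.14 and 0.18). CASP6 rose in A2780 (0.64 at 40 mg/L) and fell in SKOV3 (−0.46). CYCS, the gene of cytochrome c, rose in SKOV3 at 40 mg/L (0.71) and fell in A2780 (−0.45 and −0.28), the last of these lost under 3 of 16 alternatives.

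Death receptor genes, which feed BID, formed a list of 13, all tested in SKOV3 and 12 of them in A2780. In SKOV3, 1 rose at 20 mg/L (7.69% called, beside 10.1% of all genes) and 7 fell at 40 mg/L (53.8%, beside 52.1%). In A2780, 5 rose and 1 fell at each dose (50% called, beside 36.9%). The gene that rose in SKOV3 at 20 mg/L, TNFRSF10D (log2 0.27), a decoy receptor for the ligand TRAIL, rose in A2780 as well (0.87 at 20 mg/L and 1.00 at 40 mg/L), and FADD, the adaptor of these receptors, fell in both lines at 40 mg/L (−0.23 in SKOV3 and −0.20 in A2780). The TNFRSF10D call in SKOV3 was lost without 20 mg/L replicate 1 (edgeR adjusted p = 0.0820) or 3 (0.0576), without DMSO replicate 3 (0.0699) and with all libraries in 1 fit (0.0549). The FADD call in A2780 was lost without 40 mg/L replicate 2 (edgeR adjusted p = 0.0840) or 3 (0.0699), without DMSO replicate 2 (0.0741) or 3 (0.174), with no filter (0.0873) and with library totals without TMM (0.341). FAS fell in SKOV3 (log2 −0.92) and rose in A2780 (0.78) at 40 mg/L, and the difference itself was −1.72 (SKOV3 minus A2780, edgeR adjusted p = 1.04e-13). TNFSF10, the gene of TRAIL itself, fell in SKOV3 (−2.22). CASP8 fell in SKOV3 (−0.59) and rose in A2780 (0.21). The TRAIL receptor gene TNFRSF10A averaged 11.1 CPM at 40 mg/L and 14.0 CPM with DMSO in SKOV3, and 3 of the 9 A2780 libraries held any count of it.

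Genes that control BH3-only transcription, together with genes of the stress pathways around them, formed a list of 13. In SKOV3, 7 rose at 20 mg/L (53.8% called, beside 10.1% of all genes), and 10 rose and 1 fell at 40 mg/L (84.6%, beside 52.1%), with a median log2 change of 1.21 at 40 mg/L beside 0.01 over all genes. In A2780, 4 rose and 2 fell at 20 mg/L of 12 tested, and 5 rose and 1 fell at 40 mg/L, with a median of 0.21 at 40 mg/L. That was 50% called at each dose, beside 36.9% of all genes. ATF3 had 65.4, 65.1 and 60.3 CPM at 40 mg/L in SKOV3, against 6.03, 6.26 and 4.32 CPM with DMSO, and 2.21, 2.28 and 1.90 CPM in A2780, against 0.961, 0.708 and 0.527 CPM. DDIT3, the gene of CHOP, had 120, 119 and 118 CPM at 40 mg/L in SKOV3, against 30.2, 31.0 and 28.9 CPM with DMSO, and 40.4, 35.2 and 34.8 CPM in A2780, against 16.1, 15.9 and 15.3 CPM. ATF4 rose in SKOV3 (log2 0.89) and in A2780 (0.43) at 40 mg/L, and TRIB3 rose in SKOV3 (1.72) with −0.10 in A2780. At 20 mg/L TRIB3 was lower than with DMSO in A2780, at −0.75 to −0.57 on leaving out each library. Between the doses in A2780 TRIB3 was higher at 40 mg/L, at 0.46 to 0.67 on leaving out each library. Of the exonic bases of DDIT3, 28.0% lie opposite MARS. MYC rose in SKOV3 (0.64 and 1.69) and fell in A2780 (−1.21 and −1.06), while JUN rose in both lines at both doses. TP63 fell in SKOV3 at 40 mg/L (−1.90).

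Genes that set the lifetime of MCL1 and BIM proteins were a list of 11. In SKOV3, 0 rose and 2 fell at 20 mg/L (18.2% called, beside 10.1% of all genes), and 2 rose and 5 fell at 40 mg/L (63.6%, beside 52.1%). The number called at 20 mg/L ranged from 0 to 2 over 15 alternatives. In A2780, 3 rose and 4 fell at 20 mg/L (63.6%) and 3 rose and 3 fell at 40 mg/L (54.5%), beside 36.9% of all genes at each dose. FBXW7, which marks MCL1 for destruction, rose at 40 mg/L in SKOV3 (log2 0.49) and in A2780 (0.39). The deubiquitinase genes that spare MCL1 split in A2780, where USP9X rose (0.49) and USP13 fell (−0.40). In SKOV3 USP13 fell (−0.33) and USP9X was lower as well, at −0.19 to −0.15 on leaving out each library. DYNLL1, whose protein tethers BIM to the cytoskeleton, fell in SKOV3 (−0.61) and in A2780 (−0.34), the A2780 call being lost without any 1 of the 3 DMSO libraries.

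**Figure D5:**
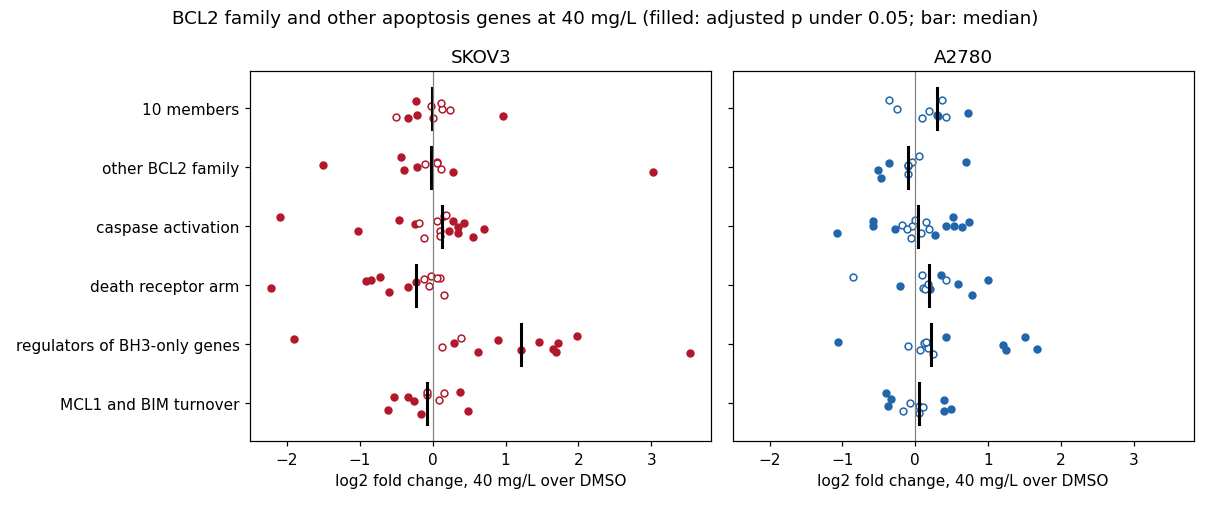
log2 fold change at 40 mg/L over DMSO for the 10 family members and 5 lists of related genes, with SKOV3 on the left and A2780 on the right. Each point is a gene, filled where the adjusted p was under 0.05, and bars are medians. The list labelled regulators of BH3-only genes also holds genes of the stress pathways around them. Its median is 1.21 in SKOV3 and 0.21 in A2780.

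Within the family, log2 CPM centred on each line's mean was compared over the 18 libraries, which share doses, so correlations are descriptions. The highest was between BAX and BBC3 (r = 0.73), followed by BCL2 with BCL2L1 (0.66) and BCL2L11 with BBC3 (0.66), and the lowest was between BAK1 and BID (−0.50). The most alike genes were sought only among those that passed the filter in both lines and had no clone or LINC name. The gene most like BCL2L1 was its antisense partner ABALON (r = 0.95), with which it may share reads. MCL1 was most like FAM213A (0.93), BBC3 most like PTPN21 (0.86), BAX most like RTTN (0.85), BID most like HAT1 (0.87) and BCL2L11 most like ANKRD26 (0.87). BCL2 was most like LXN (0.86), BAK1 most like STON1-GTF2A1L (0.87) and BIK, with few counts, most like SEPN1 (0.74). PMAIP1 was left out of these because it was not measurable in A2780.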

How the data were processed

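Messenger RNA of 18 libraries, 3 in each of 6 groups, was sequenced by the authors. They deposited raw counts per gene for 56303 genes in a single table, with no normalization. Reads had been trimmed with Trimmomatic 0.36 and GRCh38 was the build, per the submitters' processing notes. For the aligner, the counter, its strand setting and the annotation release, the sources used here give no value, and the library kit is stranded, per the labels' protocols. The table's small counts are mostly even, so both mates of a pair appear to be counted and counting intervals were taken on pairs; they cover counting error only. Identifiers turned into dates (28, with 0.161% to 0.194% of counts) name no gene and are not among the genes reported. All sample columns were mapped by name, and groups came from the labels.

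Counts were filtered with filterByExpr, scaled by TMM and tested with edgeR 4.0.16 (quasi-likelihood F test, robust; R 4.3.3, limma 3.58.1) within each line, and over all 18 libraries for differences between lines. Benjamini-Hochberg adjustment ran over all genes tested and the threshold was 0.05. The biological coefficient of variation was 5.83% in SKOV3, 7.71% in A2780 and 6.81% over both. Printed levels are CPM after TMM over all 18 libraries, and RPKM divides these by exonic length. Alternatives were DESeq2 1.42.0, other size factors, other filters, counts halved, no mitochondrial genes, a replicate block, 1 fit of all libraries and the omission of each library. The omission of both A2780 libraries of lowest mitochondrial share was chosen after seeing the data. The fitting was tested on simulated data. Likeness was Pearson's r of log2 (CPM + 0.5), centred by line, over genes that passed the filter in both lines, with clone and LINC names left out. Promoter sequences were read from RefSeq tables (GRCh38.p14) with Python 3.11.15, and figures were drawn with matplotlib 3.10.9.

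The family members and the gene lists were chosen with earlier results of these data known. Named in the text are the 10 members in every comparison, the tested genes of the other BCL2 family list, up to 3 of the highest and 3 of the lowest called genes of each other list at 40 mg/L in each line, and ERBB2. Some were named after their values were seen, where that rule does not reach them. Among others these were CASP8, ATF4 and TNFRSF10A, APAF1, MYC, JUN, TNFRSF10D, FADD and USP9X in SKOV3, and CYCS, DDIT3 and TRIB3 in A2780. Results of some listed genes and motifs are not reported here.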

Additional observations from a re-analysis of the deposited data

Results flagged for a closer look

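A difference between the lines' responses, tested in 1 model of the 18 libraries with the A2780 value subtracted from that of SKOV3 on the log2 scale, was called for the following members. At 20 mg/L it was 0.75 for BID (0.32 in SKOV3 and −0.43 in A2780) and −0.29 for MCL1 (−0.09 and 0.19 in the same order). At 40 mg/L it was −0.58 for MCL1 (−0.23 in SKOV3 and 0.32 in A2780), −0.62 for BBC3 (0.13 and 0.73), −0.35 for BAX (−0.03 and 0.30) and −0.34 for BCL2L1 (−0.22 and 0.09).

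Among the other family genes, the same test called BNIP3 at 20 mg/L (0.54, edgeR adjusted p = 5.32e-05) and at 40 mg/L (0.73, edgeR adjusted p = 1.32e-07). BOK was called at 20 mg/L (0.92, edgeR adjusted p = 3.07e-05) and at 40 mg/L (0.54, edgeR adjusted p = 0.00739). At 40 mg/L HRK differed by 3.10 (edgeR adjusted p = 3.54e-06), BMF by −1.17 (edgeR adjusted p = 6.61e-05) and BAD by −0.46 (edgeR adjusted p = 0.00993), the last lost without SKOV3 DMSO replicate 3 (adjusted p = 0.0528). At 20 mg/L BCL2L13 differed by 0.29 and BCL2L15 by −2.26, lost under 6 of 21 and 7 of 20 alternatives. BCL2L15 had at most 12 counts in any A2780 library and did not pass the filter on low counts there. It entered this test through its SKOV3 libraries, so its value cannot be read as a difference in response.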

How the results depend on the processing

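Of 33 called member values, 22 held under every alternative and none changed sign. Those that held include all 9 calls between the lines with DMSO, which are not responses to daphnetin. PMAIP1 is among these 9 and passed the filter only through its SKOV3 libraries. Every call that was lost concerned a response to daphnetin. With library totals in place of TMM, 5 members were called in A2780 at 40 mg/L. With all libraries in 1 fit, 2 were called in A2780 between doses, 1 in SKOV3 at 20 mg/L and 3 in SKOV3 between doses, and 1466 genes were called in SKOV3 at 20 mg/L. Without both A2780 libraries of lowest mitochondrial share, 1 member differed between lines at 20 mg/L. Library totals moved the median of all genes in A2780 at 40 mg/L by 0.10 on the log2 scale, and genes called higher and lower became 5098 and 2748 there (3641 and 3954 with TMM), 5021 and 2709 in A2780 at 20 mg/L (3718 and 3886), 1573 and 799 in SKOV3 at 20 mg/L (1132 and 1085), and 2097 and 3026 for the line difference at 20 mg/L (2616 and 2505).

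Leaving out each library gave 1583 to 3500 genes in A2780 between doses and 1443 to 1741 in SKOV3 at 20 mg/L. Members called ranged from 3 to 5 in A2780 at 40 mg/L, 0 to 2 in A2780 between doses, 0 to 1 in SKOV3 at 20 mg/L, 3 to 6 in SKOV3 between doses, and 1 to 2 and 2 to 6 for the line difference at 20 and 40 mg/L.

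Signs turned only for values not called. Between doses in SKOV3, BAK1 was −0.0073 with all libraries in 1 fit and −0.00064 without mitochondrial genes. With library totals BAX was 0.019 in SKOV3 at 40 mg/L and BCL2L1 0.010 in SKOV3 at 20 mg/L. Between doses in A2780, BCL2L11 was −0.0026 and BIK 0.17 without the pair of lowest mitochondrial share, and BIK was 0.0056 with DESeq2 and 0.12 with the replicate block. On leaving out a library, BAK1 ran from −0.061 to 0.20 in A2780 between doses, −0.048 to 0.054 in SKOV3 at 20 mg/L, −0.046 to 0.033 at 40 mg/L and −0.043 to 0.024 between doses. BAX ran from −0.060 to 0.0014 in A2780 between doses and −0.098 to 0.032 in SKOV3 at 40 mg/L, BBC3 from −0.13 to 0.11 in SKOV3 between doses, BCL2L1 from −0.061 to 0.032 in SKOV3 at 20 mg/L, and BCL2L11 from −0.021 to 0.25 in A2780 between doses and −0.15 to 0.027 in SKOV3 at 20 mg/L. BIK ran from −0.97 to 0.088, −0.65 to 0.053 and −0.45 to 0.62 in A2780 at 20 mg/L, 40 mg/L and between doses, −0.34 to 0.056 in SKOV3 between doses, and −0.51 to 0.58 and −0.57 to 0.24 for the line difference at 20 and 40 mg/L. The cause was not tested.

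Deviations of same-numbered libraries correlated at −0.062 to 0.099 in SKOV3 and −0.135 to 0.054 in A2780. These weak values do not exclude a pairing of libraries by replicate number. With the replicate block, 3 members were called in SKOV3 at 40 mg/L, BCL2 being lost, and the other member counts did not change. At 40 mg/L, 11622 genes were called in SKOV3 with the block and 11425 without it, and 7311 and 7595 in A2780. Depth limits BIK in both lines and BCL2 and PMAIP1 in A2780.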

Other observations

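Some genes near BCL2 on chromosome 18 also differed in level between the lines with DMSO, where 78.3% of all genes tested were called. SERPINB5 averaged 3.79 CPM in SKOV3 and 0.00944 CPM in A2780, SERPINB8 12.7 and 0.127 CPM, HMSD 3.43 and 0.0628 CPM, and TNFRSF11A 2.90 and 0.363 CPM. KDSR (20.2 CPM in SKOV3 and 11 CPM in A2780) and VPS4B (71.3 and 35.2 CPM) were closer, and PHLPP1 (8.03 and 10.4 CPM) and ZCCHC2 (20.1 and 32.1 CPM) were lower in SKOV3. PIGN averaged 15.4 CPM in SKOV3 and 16.8 CPM in A2780, and KIAA1468 23.5 and 18.3 CPM. These genes were named after their values were seen, and no copy number was measured.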
